A study of Ovis aries with 16 samples.

Results

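The comparison set amnion whose inflow of fluid had been disturbed for 2 days against amnion whose inflow had been kept. The disturbed state pooled the UD group, in which fetal urine was drained and not replaced, with the IA group, in which lactated Ringer's solution, a balanced salt solution, ran into the amniotic cavity at a rate of 2 liters per day. The maintained state pooled the controls (C) with the UDR group, in which urine was drained and the same volume of lactated Ringer's solution was given back. The members were therefore chosen by treatment label alone: all 16 libraries of the series entered, 8 disturbed and 8 maintained, with 4 animals in each of the 4 groups. The animals were pregnant sheep with singleton fetuses, instrumented at a mean gestational age of 121 days (SE 0.5), where term is 145 to 150 days. All of them, controls included, carried maternal and fetal vascular catheters and catheters in the amniotic sac and the fetal bladder. Libraries are named by group and animal number, so that UD1 is the first UD animal.

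Amniotic fluid is replenished mainly by fetal urine and lung liquid, and it leaves by fetal swallowing and by transfer across the amnion into fetal vessels, a route called intramembranous transport. The amnion is the thin, avascular inner membrane, an epithelium on a layer of connective tissue, and in sheep such transfer is thought to run largely through vesicles that carry fluid and solutes across the cells. UD and IA push fluid inflow in opposite directions, while C and UDR hold its volume but differ in its composition. The series addressed how genes of vesicle transport in the amnion behave when that rate is altered. The same contrast also has a factorial reading: with urine drained or kept as 1 factor and Ringer's solution given or not as the other, it measures whether the effect of Ringer's solution depends on drainage.

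The files held reads per gene for 25197 Ensembl sheep gene IDs, with no gene names, and none of the IDs matched the reference gene table. The 26 lists of gene symbols prepared for vesicular transport, water and ion transport, junctions, stress, inflammation and cell types, 307 symbols in all, could therefore not be read out, and the label amnion could not be checked against its markers. Libraries held 12245460 to 30767263 reads. UDR2 and UDR3, each sequenced in 2 lanes, were the deepest. IA2, UD1 and UD4 stood apart from the other libraries on the first principal component of log2 CPM, where CPM is a gene's reads scaled to the library's total, with scores of 168.7, 108.9 and 57.4, where UDR3 scored 26.8 and the other 12 libraries between -54.7 and 6.45. All 3 belonged to the disturbed state, so the main results are also given without them. These are bulk samples, in which fewer cells of a type and less RNA per cell cannot be told apart.

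No gene passed the test of disturbed against maintained inflow. Of 13569 genes with a CPM of 1 or more in at least 4 of the 16 libraries, edgeR's quasi-likelihood test with Benjamini-Hochberg adjustment called 0 (0% of genes tested), and the smallest adjusted p was 0.218. If no gene differed, about 678 would be expected at an unadjusted p below 0.05. Before adjustment, 1364 genes had a p below 0.05, 10.1% of those tested. Of these, 1149 (8.47% of genes tested) had higher values in disturbed amnion and 215 (1.58%) had lower values. Over all genes the median log2 fold change, written as disturbed minus maintained throughout, was -0.04, with quartiles of -0.23 and 0.23.

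Other tools gave other counts. DESeq2 called 461 of 13446 genes (3.43%), 440 higher (3.27%) and 21 lower (0.156%) in disturbed amnion, while limma-voom called 0 with sample quality weights and 0 without. The lean to higher values was not there in every fit: with quality weights limma-voom put 3770 genes at an unadjusted p under 0.05, 1858 higher and 1912 lower, and without weights 960, 713 higher and 247 lower. In 380 of the 440 higher genes the 3 highest libraries were UD1, UD4 and IA2. DESeq2 called 119 genes without UD1, 221 without UD4, 80 without IA2 and 2 without all 3. Fewer libraries entered those fits, so a lost call need not mean a smaller difference. The results of edgeR are used below.

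The 1149 genes with higher values showed wide differences and the 215 with lower values narrower ones. Among the 1149, the median log2 fold change was 1.76, with quartiles of 1.16 and 2.31, and 916 lay beyond 1. Among the 215 it was -0.76, with quartiles of -1.48 and -0.45, and 83 lay beyond 1 in size. Both sets were picked by their p in this contrast, so these sizes describe them and test nothing. The higher set leaned to genes of low abundance. With the genes tested divided into 4 bins of equal size by abundance, it took in 13.8% of the lowest bin, whose median was 2.85 CPM, and 5.72% of the highest, whose median was 111.8 CPM. The lower set took in 1.74% and 1.36% of the same bins.

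**Figure D1:**
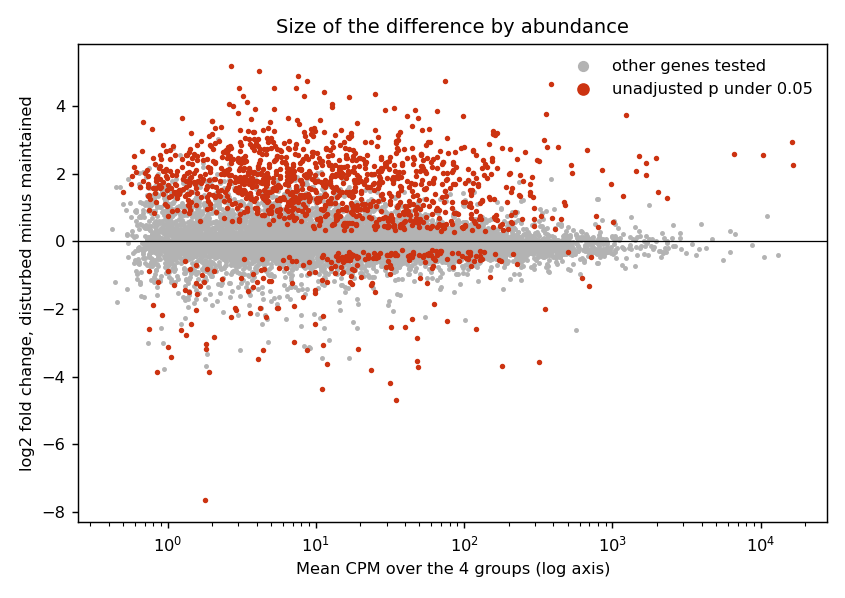
Log2 fold change of disturbed minus maintained inflow (vertical axis) against the mean CPM over the 4 groups (horizontal, log axis) for the 13569 genes tested, with the 1364 genes at an unadjusted p under 0.05 in red. Red points above 0 outnumber those below, and they spread widest among genes of low abundance.

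The gene with the smallest p was ENSOARG00000012448. It stood at 9.46, 8.69, 8.05 and 10.2 CPM in C1 to C4 and at 6.28, 1.71, 1.08 and 5.15 in UDR1 to UDR4. In disturbed amnion it stood at 72.1, 11.01, 25.8 and 56.2 CPM in UD1 to UD4 and at 8.13, 47.0, 13.3 and 27.6 in IA1 to IA4. Every disturbed library but IA1 lay above the highest maintained library, C4. The mean was 32.7 ± 23.4 CPM in the disturbed state and 6.33 ± 3.45 in the maintained state (SD, n = 8). The log2 fold change was 2.47 (SE 0.48), and edgeR's quasi-likelihood test with Benjamini-Hochberg adjustment gave it an adjusted p of 0.218. The UDR libraries lay below every C library, so the size depended on which maintained group was taken: the log2 fold change of UD was 2.18 (SE 0.67) over C and 3.55 (SE 0.71) over UDR, and that of IA was 1.40 (SE 0.66) and 2.77 (SE 0.69). Without UD1, UD4 and IA2 the log2 fold change of disturbed against maintained inflow was 1.64 (SE 0.44).

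ENSOARG00000004007 came second. Its maintained libraries held 11, 4.24, 4.63 and 6.32 CPM in C1 to C4 and 0.956, 1.08, 1.64 and 2.57 in UDR1 to UDR4. Its disturbed libraries held 51.6, 18.2, 4.32 and 73.7 CPM in UD1 to UD4 and 4.00, 67.3, 13.4 and 9.17 in IA1 to IA4. The states overlapped: 5 disturbed libraries lay above the highest maintained one, C1, while UD3, IA1 and IA4 lay within the maintained range. The log2 fold change was 3.20 (SE 0.64, edgeR adjusted p = 0.218), or 2.51 without IA2 and 1.65 (SE 0.43) without UD1, UD4 and IA2. UD and IA did not differ in this gene beyond their spread, by 0.66 in log2 (SE 0.83), and UDR minus C was -2.07 (SE 0.88) on the same scale, with an edgeR adjusted p of 0.793.

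ENSOARG00000004990 had the smallest p among genes lower in disturbed amnion. It held 8.45, 2.75, 12.8 and 17.0 CPM in C1 to C4 and 5.33, 15.5, 2.36 and 4.34 in UDR1 to UDR4. In the disturbed state it held 1.11, 2.01, 1.77 and 0.719 CPM in UD1 to UD4 and 6.07, 1.33, 2.09 and 3.51 in IA1 to IA4. The 4 UD libraries, with IA2 and IA3, lay below the lowest maintained library, UDR3, while IA1 and IA4 lay within the maintained range. The log2 fold change was -1.97 (SE 0.48, edgeR adjusted p = 0.218), and -1.61 (SE 0.55) without UD1, UD4 and IA2. Against the pooled maintained libraries, which both values share, it was -2.58 (SE 0.65) for UD and -1.37 (SE 0.60) for IA. The difference between UD and IA was -1.21 (SE 0.67), for which edgeR gave an adjusted p of 0.9998.

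ENSOARG00000011319, second among the lower genes, was scarce. Its disturbed libraries held 0 to 9 reads each, at 0 to 0.566 CPM, and its maintained libraries 1 to 239 reads. Only some maintained libraries were high, C1 at 16.03 CPM, UDR2 at 5.52 and UDR1 at 4.30. C4 at 1.20 and UDR3 at 0.760 CPM also lay above every disturbed library. C2, C3 and UDR4 stood at 0.446, 0.214 and 0.0736 CPM, within the disturbed range. The log2 fold change of -3.87 (SE 1.04, edgeR adjusted p = 0.218) was -2.46 without C1. It was -3.61 (SE 1.37) without UD1, UD4 and IA2.

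A single gene, ENSOARG00000017359, had every disturbed library above every maintained one (0.00737% of genes tested), and 0 genes had every disturbed library below. With 13569 genes tested and 12870 possible divisions into 8 and 8, a single such gene would not be unusual if no gene differed. The gene was chosen after its values were seen. Its maintained libraries held 128.9, 123.9, 109.8 and 143.0 CPM in C1 to C4 and 122.2, 146.4, 71.0 and 113.5 in UDR1 to UDR4. Its disturbed libraries held 328.3, 209.3, 156.3 and 310.5 CPM in UD1 to UD4 and 186.5, 587.6, 195.4 and 166.6 in IA1 to IA4. The lowest of these, UD3, lay above the highest maintained library, UDR2, and C and UDR were at similar levels. The mean was 267.6 ± 144.3 CPM in disturbed and 119.9 ± 23.5 in maintained amnion (SD, n = 8). The log2 fold change was 1.16 (SE 0.28), and its 95% interval ran from 0.57 to 1.75; edgeR's adjusted p was 0.218, so it did not pass over all genes. It was 0.99 (SE 0.39) for UD and 1.17 (SE 0.39) for IA over C, which both values share, and 1.15 (SE 0.39) and 1.33 (SE 0.39) over UDR. Without UD1, UD4 and IA2 it was 0.63 (SE 0.17). DESeq2 called each of these 5 genes with an adjusted p of 0.00011 to 0.00465 and none of them without UD1, UD4 and IA2. Between these 2 DESeq2 fits the log2 fold change of ENSOARG00000011319 went from -3.92 to -3.69 and that of ENSOARG00000004990 from -1.97 to -1.63. It went from 2.47 to 1.61 in ENSOARG00000012448, from 3.21 to 1.64 in ENSOARG00000004007 and from 1.16 to 0.61 in ENSOARG00000017359. Over all alternatives run, adjusted p-values of the 5 genes ran from 0.00011 to 0.9999.

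**Figure D2:**
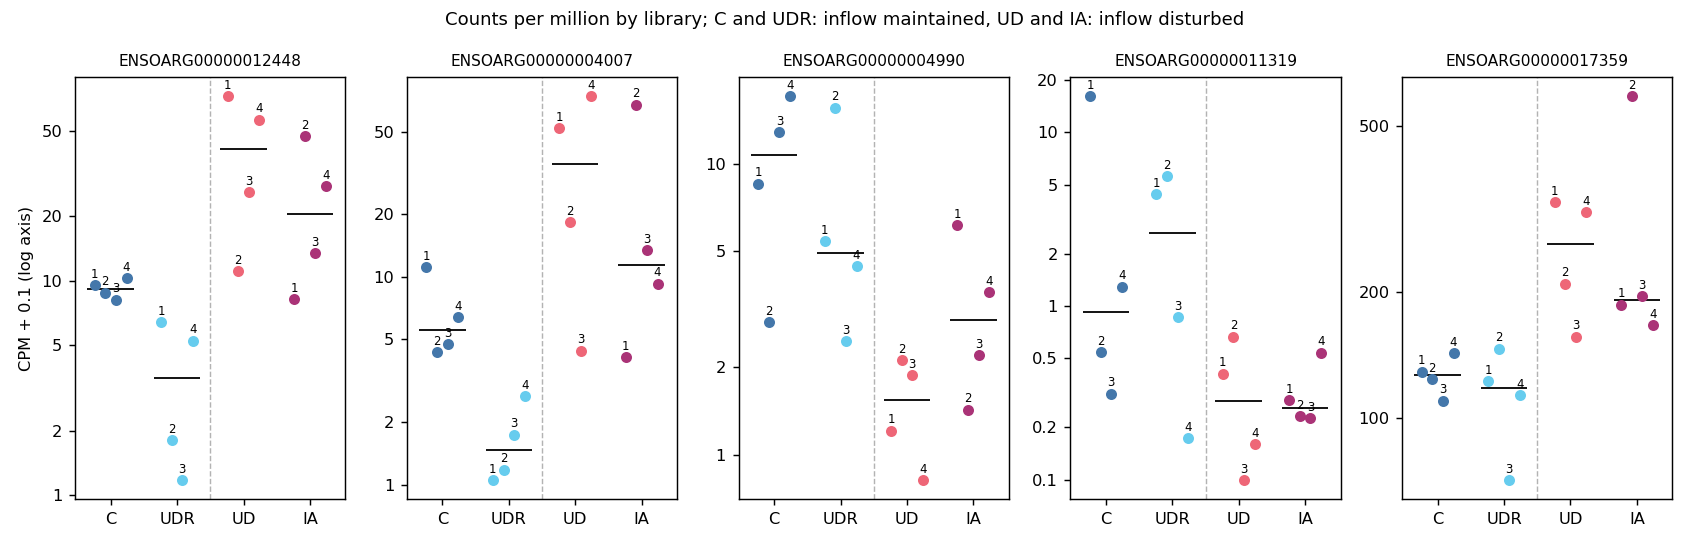
CPM of the 5 genes in every library (vertical log axis, with 0.1 CPM added so that a library with 0 reads can be drawn), grouped as C, UDR, UD and IA; each point is 1 animal with its number, and bars mark group medians. UD1, UD4 and IA2 are the 3 highest libraries in ENSOARG00000012448, ENSOARG00000004007 and ENSOARG00000017359, and in ENSOARG00000017359 every UD and IA point lies above every C and UDR point.

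Among genes with higher values in disturbed amnion, the highest libraries were often the same few animals. In 760 of the 1149 genes (66.1%) the 3 highest of the 16 libraries were UD1, UD4 and IA2, against 8.08% of all genes tested. The highest library was IA2 in 682 genes (59.4%) and UD1 in 377 (32.8%), against 14.8% and 10.4% of all genes. UD4 was highest in 31 of the 1149 (2.7%), against 1.75% of all genes, while UD3 was highest in 4 and IA1 in 3 (0.348% and 0.261%), against 2.23% of all genes for either. The 215 genes with lower values had their highest library in the maintained state in 98.1%, against 57.3% of all genes. It was most often UDR3 (74 genes, 34.4%) or UDR2 (37 genes, 17.2%), against 14.6% and 9.44% of all genes. Their lowest library was most often UD1 (65 of 215) or IA2 (57 of 215), which were lowest in 1360 and 2296 of all 13569 genes. The set was picked by p, which favors such libraries, so these shares are descriptive.

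**Figure D3:**
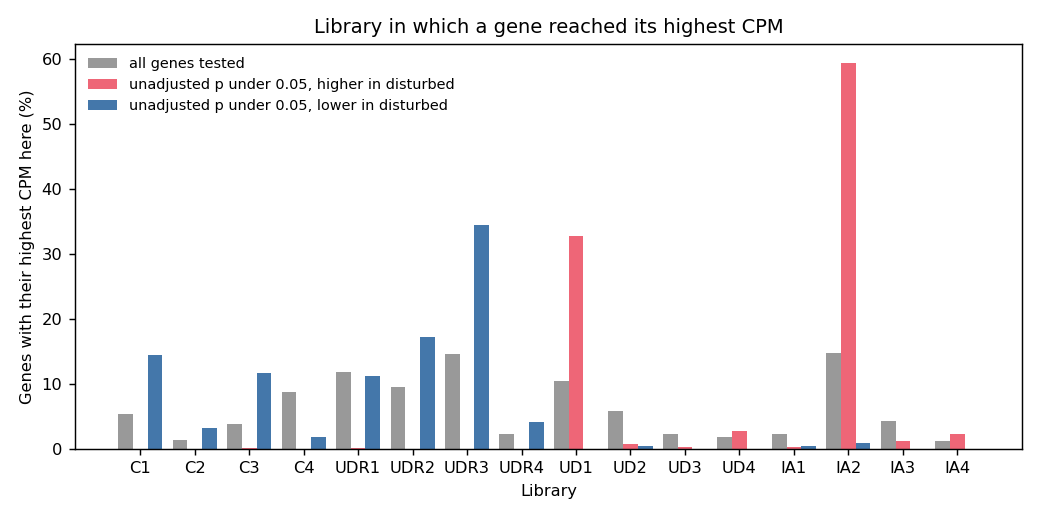
Percentage of genes (vertical axis) that reached their highest CPM in each of the 16 libraries (horizontal axis), for all 13569 genes tested (gray), the 1149 with an unadjusted p under 0.05 and higher values in disturbed amnion (red) and the 215 with lower values (blue). IA2 and UD1 hold most of the red set, and UDR3 holds the largest part of the blue set.

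Counts of separated libraries, which use no p, leaned the same way only at higher cutoffs, and less strongly. Of the 13569 genes tested, at least 1 disturbed library lay above every maintained library in 5788 and below in 6245. At least 1 maintained library lay above every disturbed library in 7781 (57.3%) and below in 7195. For at least 2 disturbed libraries the counts were 3084 above and 3381 below, and for at least 3 they were 1897 and 1705. In 1362 genes (10% of those tested) UD1, UD4 and IA2, named here because they stood apart, all lay above every maintained library, and in 911 (6.71%) all 3 lay below. In 345 genes (2.54%) at least 5 of the 8 disturbed libraries lay above every maintained library, and in 164 (1.21%) at least 5 lay below. With the states exchanged, at least 5 maintained libraries lay above every disturbed library in 140 genes and below in 240. The 3 libraries parted from the maintained state in both directions, but they were picked as extremes in these same data, so those counts test nothing. Separation of most disturbed animals was uncommon. The numbers expected if no gene differed were not worked out for these cutoffs, so all of these counts are descriptive.

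Leaving out animals one at a time moved the number of genes at an unadjusted p under 0.05 from 1364 to between 844 and 2012, with 0 genes called by edgeR each time. It was 844 without UD1 and 848 without IA2. It was 1790 without UD2 and 2012 without UD3, disturbed animals that lay within the maintained range on the first principal component. Without UD1, UD4 and IA2 together, 191 genes had an unadjusted p below 0.05, 132 with higher values and 59 with lower ones, and edgeR's smallest adjusted p was 0.9999. If no gene differed, about 678 of the 13569 genes would be expected at that p, so this split was not read as a lean. DESeq2 without the same 3 libraries put 271 genes there, 147 higher and 124 lower. Without C1, UD2, UDR2 and UDR3, which scored highest on the second principal component, edgeR put 1410 genes there. Of these, 1254 had higher and 156 lower values, and 0 were called.

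**Figure D4:**
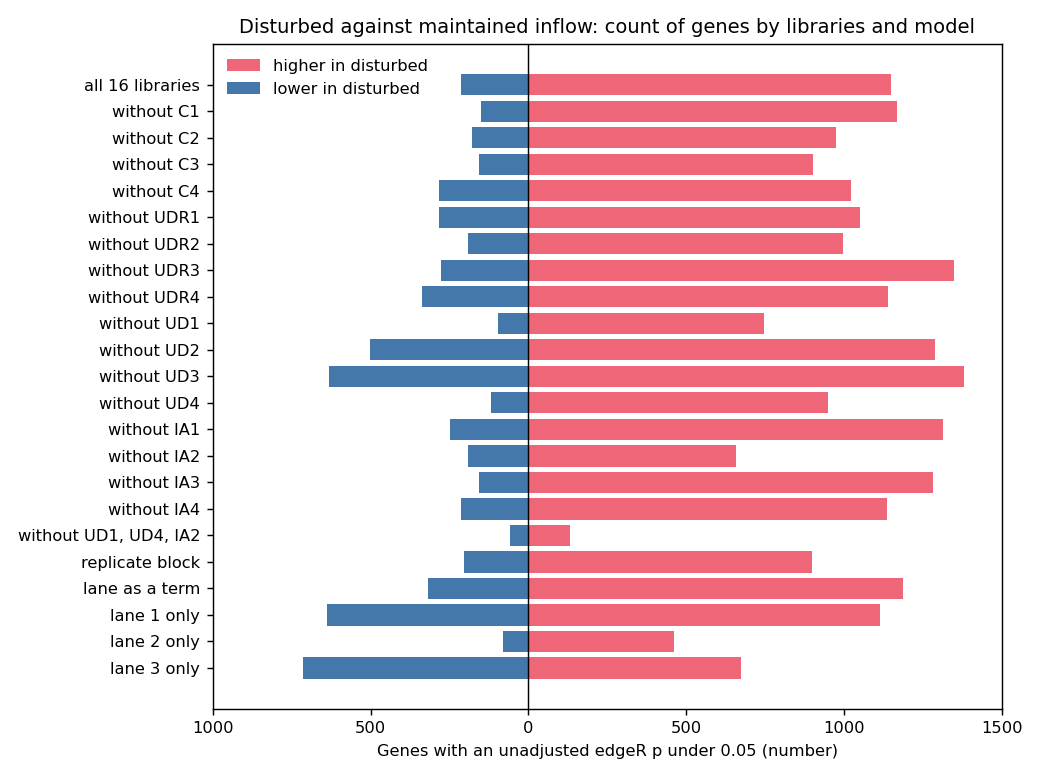
Number of genes with an unadjusted edgeR p under 0.05 (horizontal axis), higher in disturbed amnion to the right of 0 and lower to the left, for all 16 libraries, with libraries left out, with the replicate number or the sequencing lane as a term, and within each lane. The count falls from 1364 to 191 without UD1, UD4 and IA2, and within lane 3 the lower genes are as many as the higher ones.

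Each sequencing lane held animals of both states but none held all 4 groups. The states could be compared within lanes, while the 4-group contrast could not be read in any of them. Lane 1 held C1 to C4 with UD1 and UD2, lane 2 the UDR libraries with UD3 and UD4, and lane 3 the IA libraries with the second runs of UDR2 and UDR3. Lane 1 thus set UD against C, lane 2 UD against UDR, and lane 3 IA against UDR. With lane as a term beside the 2 pooled states, without the 4 group means, edgeR again called 0. Before adjustment 1503 genes lay below 0.05, 1186 with higher values and 317 with lower ones. Within lane 1 the numbers were 1116 higher and 639 lower, within lane 2 they were 461 and 81, and within lane 3 they were 673 and 713. Genes with higher values thus outnumbered those with lower values in lanes 1 and 2 but not in lane 3, where UDR2 and UDR3 were the only maintained libraries. The 542 genes of lane 2 were fewer than the about 678 expected if no gene differed, so that split was not read as a lean. Lanes 1 and 2 held 2 disturbed libraries each, with UD1 in lane 1 and UD4 in lane 2. ENSOARG00000017359 had log2 fold changes of 1.06 (SE 0.26), 1.06 (SE 0.39) and 1.41 (SE 0.74) in lanes 1, 2 and 3. ENSOARG00000012448 had 2.15, 3.52 and 4.18, ENSOARG00000004007 2.38, 4.62 and 4.204, ENSOARG00000004990 -2.72, -2.49 and -1.37, and ENSOARG00000011319 -3.36, -6.11 and -3.61. These genes were chosen in the same libraries, and lanes 2 and 3 share the animals UDR2 and UDR3, so the lanes give values side by side and no separate check of direction.

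Differences between the 2 treatments pooled as disturbed were few by edgeR. Between UD and IA edgeR called 0 genes (0% of those tested), and 97 (0.715%) had p below 0.05 before adjustment, 76 with higher and 21 with lower values in UD. That is fewer than the about 678 expected if no gene differed. DESeq2 called 3 genes here and limma-voom with quality weights 1466. Over the pooled maintained libraries, which both comparisons share, 1091 genes reached an unadjusted p under 0.05 in UD, 981 of them higher, and 1025 in IA, 868 of them higher. Over C, the split was 618 higher and 104 lower for UD and 501 and 79 for IA. Over UDR it was 857 and 349 for UD and 701 and 510 for IA, a more even split for IA than over C. The totals were 722 for UD and 580 for IA over C, and 1206 and 1211 over UDR. The 580 genes of IA over C were fewer than the about 678 expected if no gene differed, so that split was not read as a lean. Each of these comparisons called 0 genes by edgeR. UDR and C, the groups pooled as maintained, differed at an unadjusted p under 0.05 in 818 genes (6.03%), with 0 called by edgeR, 31 by DESeq2 and 0 by limma-voom. A missed threshold does not show that the pooled groups were alike.

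The other ways of pairing the groups in the same fit gave fewer genes. Setting urine removed (UD and UDR) against urine kept gave 488 genes at an unadjusted p under 0.05 (3.6% of genes tested), and setting Ringer's solution given (UDR and IA) against not given gave 306 (2.26%). Both called 0 genes by edgeR, with the same median SE of 0.28 on the log2 scale as the contrast of inflow. The number for disturbed inflow was higher than both by count. Both of the other counts lay below the about 678 expected if no gene differed, so such counts are no plain measure of effect. The counts were not tested against each other. UD1, UD4 and IA2 lie on 1 side of the inflow contrast and are divided by each of the others.

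At the level of whole libraries, disturbed amnion put more of its reads into few genes. The 10 most abundant genes took 21.3%, 14.99%, 10.6% and 17.1% of the reads in UD1 to UD4 and 9.65%, 22.7%, 10.1% and 12.2% in IA1 to IA4. They took 9.31%, 8.95%, 7.28% and 8.32% in C1 to C4 and 11.7%, 11.1%, 9.45% and 7.41% in UDR1 to UDR4. The 5 highest shares, those of IA2, UD1, UD4, UD2 and IA4, were all of disturbed animals, while UD3, IA1 and IA3 lay within the maintained range. The mean was 14.8% ± 5.10 in the disturbed and 9.20% ± 1.60 in the maintained state (SD, n = 8), a difference of 5.62 percentage points with a two-sided exact permutation p of 0.00544 and an adjusted p of 0.0381 over 7 library measures. It was not robust to losing an animal: the exact permutation test gave adjusted p-values of 0.0141 to 0.111 with 1 library left out and missed the threshold in 9 of 16 cases, with differences of 4.50 points (without IA2) to 6.36. Without UD1, UD4 and IA2 the difference was 2.30 points (exact permutation p = 0.0443, adjusted p = 0.31).

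Within lanes the difference in this share was 9.67 points in lane 1, 3.93 in lane 2 and 3.35 in lane 3. The exact permutation p was 0.0667, 0.267 and 0.6, where 0.0667 is the smallest that 2 against 4 libraries allow. Only in lane 1 did the states not overlap. The genes behind the share were not the same in each library: 34 different genes were among the 10 most abundant of at least 1 library, and 0 were among them in all 16. Of these 34, 17 had a higher and 17 a lower mean share of reads in disturbed than in maintained amnion. The sizes were uneven: the 2 largest differences toward disturbed amnion were 2.29 and 1.98 points. The 10 genes with the highest mean share over all 16 libraries took 13.4% ± 4.86 of reads in disturbed and 7.29% ± 2.52 in maintained amnion (SD, n = 8). That choice favors genes high in some of these same libraries, so the values are descriptive.

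**Figure D5:**
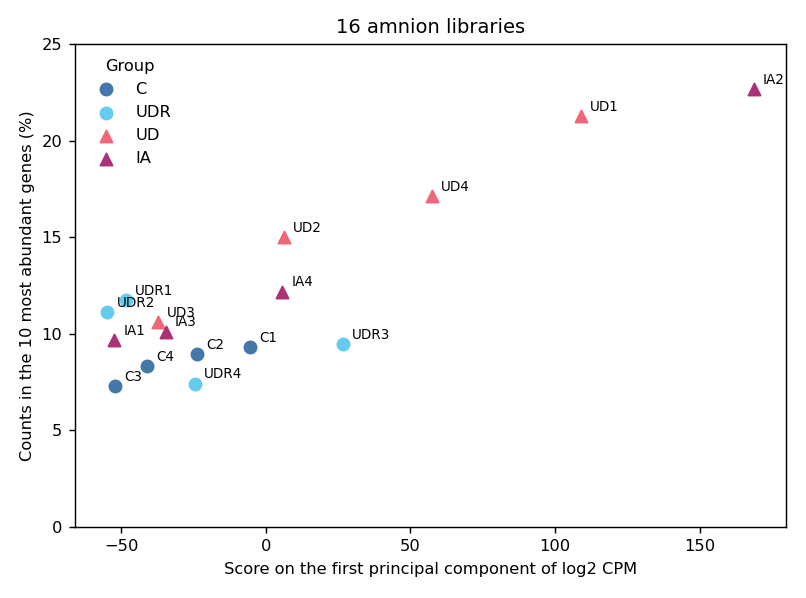
Share of reads in the 10 most abundant genes (vertical axis, %) against the score on the first principal component of log2 CPM (horizontal axis) for the 16 libraries; circles are C and UDR, triangles UD and IA. IA2, UD1 and UD4 lie at the upper right, apart from a group of libraries in which both states mix.

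None of the other 6 library measures passed the test between the states. The score on the first principal component had a mean of 27.9 ± 78.2 in disturbed and -27.9 ± 27.8 in maintained libraries (SD, n = 8; exact permutation p = 0.0771, adjusted p = 0.27). Libraries held 16727.4 ± 363.2 detected genes in the disturbed and 16750 ± 408 in the maintained state (SD, n = 8; exact permutation p = 0.91). Over all genes tested, the state accounted for 10.9% of the variance in log2 CPM, where the median of the 12870 possible divisions into 8 and 8 was 5.89% (exact permutation p = 0.101).

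Pooling gave this contrast a narrower error than a comparison of single groups, yet the spread between animals still set what could be seen. The median SE was 0.28 on the log2 scale, against 0.40 for UD over C in the same fit. Typical 95% intervals had a margin of 0.60 (median over genes), a factor of 1.52. For 60.2% of genes the whole interval lay within 2-fold of no difference. For the rest it reached beyond 2-fold, so that a difference of that size remained possible. The common biological coefficient of variation was 0.57.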

How the data were processed

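Polyadenylated RNA of amnion from 16 sheep was sequenced, 1 library per animal. The deposited table holds whole read counts for each gene, not normalized. FastQC 0.11.3, HTSeq 0.6.1 and DESeq2 are named in the submitters' processing notes. Aligner, genome build, annotation and strandedness were not stated in those sources, so overlapping genes, antisense partners and near-identical copies cannot be told apart. The table had 18 columns, each matched to a sample by name, and 4551 IDs at 0 throughout. The 2 runs of UDR2 and UDR3 agreed within sampling noise (chi-square per degree of freedom 1.03 and 1.06, against at least 39.6 between libraries) and were summed.

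Genes with a CPM of 1 or more in at least 4 of 16 libraries were kept, 13569 genes with 99.8% of all reads. Counts were TMM scaled and fitted with 4 group means in edgeR 4.0.16 (R 4.3.3), with the robust quasi-likelihood F test. The contrast was (UD + IA)/2 minus (C + UDR)/2, two-sided, with Benjamini-Hochberg adjustment over all genes and a threshold of 0.05. CPM values use TMM library sizes, and log2 CPM a prior count of 2. Library measures were compared by exact permutation over 12870 divisions of 8 against 8. Since IDs could not be named, the rule took the 2 genes with the smallest p in each direction. The contrast, the lists and the rule were chosen with earlier results of these data known.

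Alternatives were RLE scaling, other filters, DESeq2 1.42.0, limma 3.58.1 (voom, with and without sample quality weights), a replicate block, pooled groups, lane terms, lanes alone, single runs and libraries left out. When libraries were left out or a lane was taken alone, the gene set stayed fixed.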

Additional observations from a re-analysis of the deposited data

Results flagged for a closer look

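In 44 sets of 4 libraries (7 library measures and the 4 genes chosen by rule, in each group), a value far from the other 3 was found in 5, where chance gives about 2.2, and these sets overlap in what they measure. The correlation of IA2 with the rest of the series (Spearman, median over libraries) was 0.75, where IA1, IA3 and IA4 had 0.942 to 0.953. It also held ENSOARG00000004007 at 67.3 CPM, where the remaining IA animals had 4.00 to 13.4. On the second principal component C1 scored 41.7, against -34.8 to -30.5 in the other controls, and UD2 scored 78.8, against -39.0 to -24.8 in the other UD libraries. C1 held ENSOARG00000011319 at 16.03 CPM, against 0.214 to 1.20 in the other controls.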

How the results depend on the processing

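The count of 0 genes called by edgeR for disturbed against maintained inflow held under RLE scaling, both other filters, pooled groups, the lane term, single runs and each library left out. Exceptions among the alternatives were DESeq2 with 461 (119 without UD1, 221 without UD4, 80 without IA2 and 2 without all 3), edgeR within lane 3 with 1, and limma-voom with quality weights without IA2, which called 1, ENSOARG00000017359. The number at an unadjusted p below 0.05, 1364 in edgeR, was 844 to 2012 with 1 library left out, 542 within lane 2 and 191 without UD1, UD4 and IA2. It was 3770 by limma-voom with quality weights (1858 higher, 1912 lower), 497 without UD1, 501 without UD4, 3697 without IA2 (1843 higher, 1854 lower) and 191 without all 3 (162 higher, 29 lower), and 271 by DESeq2 without all 3. The cause of these differences was not tested. Runs of limma-voom and DESeq2 without these libraries, limma-voom without weights, and library measures without the 3 were added after the data were examined. So was the edgeR run without C1, UD2, UDR2 and UDR3. Between UD and IA the calls numbered 3 by DESeq2 and 1466 by limma-voom with quality weights, and for UDR against C DESeq2 called 31. At an unadjusted p below 0.05, UDR minus C split 571 higher to 247 lower in edgeR, and 363 to 365 with the replicate block.

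The labels named no shared litter or day for same-numbered animals, so whether they shared more than a number is not known. With the replicate block edgeR called 0 genes and 1104 had p below 0.05 before adjustment. Deviations of same-numbered libraries from their group means correlated over 0.1 in 10 of 24 pairs, and 8 of 16 libraries correlated best with their own number. The mean correlation was 0.04 in same-numbered pairs and -0.0074 in pairs of other numbers and groups, a difference that was not tested.

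With 1 library left out, the difference in the share of the 10 most abundant genes was 4.50 to 6.36 points, in total reads -1744440 to 901530, in detected genes -89.6 to 84.2, in the third principal component -15.8 to 4.58, and in the median log2 fold change -0.0472 to -0.0154. Without UD1, UD4 and IA2 the share differed by 2.30 points and the median Spearman correlation by 0.0172, the reverse of its sign over 16 libraries. All 5 genes, chosen in these same libraries, kept their direction in the alternatives run. Reads were few for ENSOARG00000011319, with at most 9 in each disturbed library.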
